A study of Mus musculus with 6 samples.

Results

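Transcripts of 10 Toll-like receptor genes were followed in sorted mouse microglia, out of 49585 genes listed in the count files. The genes were taken by family name, with earlier results of these data known, and were divided by where the receptor protein works. Tlr1, Tlr2, Tlr4 and Tlr6 encode the 4 receptors of the cell surface, and Tlr3, Tlr7, Tlr8, Tlr9, Tlr12 and Tlr13 encode the 6 receptors of endosomes. All 10 genes were matched to an identifier, and 9 of them had enough counts to be tested, the exception being Tlr8. The bulk RNA sequencing covers 2 genotypes with 3 libraries each: wild type (WT) and IRF8KO, the label for a knockout of the transcription factor IRF8. All mice were males aged 3 months, no treatment is listed, and microglia were prepared brain by brain without enzymes and sorted by flow cytometry. The labels give neither strain, allele, litter nor sort markers, nor whether cells other than microglia lack IRF8, and they name no allele that the WT mice share.

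Toll-like receptors are membrane proteins that bind molecules of microbes or of damaged cells and start inflammatory and interferon responses. At the surface, TLR2 works as a heterodimer with TLR1 or TLR6 and binds bacterial lipopeptides, while TLR4 binds lipopolysaccharide with its partner MD-2. In endosomes, TLR3 binds RNA duplexes, TLR7 and TLR8 bind fragments of unpaired RNA, TLR9 binds DNA with unmethylated CpG, TLR13 binds bacterial ribosomal RNA and TLR12 binds a profilin of parasites. The endosomal receptors need the chaperone UNC93B1 to leave the endoplasmic reticulum. All of these receptors signal through the adaptor MyD88 except TLR3, which uses TRIF. Microglia, the macrophages of the brain parenchyma, are among the brain cells with the broadest set of these receptors, and IRF8 is a factor of the interferon regulatory family that acts in macrophages, often together with PU.1.

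In the libraries labelled IRF8KO, Tlr2 was higher and 4 endosomal receptors, Tlr12, Tlr3, Tlr7 and Tlr13, were lower than in WT. Tlr12 stood at 1.10% of its WT level and Tlr3 at 8.22%, from counts summed over each group and scaled, whereas Tlr2 stood at 340.4%. Of the 9 members tested, 5 were called (1 higher, 4 lower) by edgeR's quasi-likelihood F test at a Benjamini-Hochberg adjusted p under 0.05 over all 11041 genes tested. The same rule called 19.1% of all tested genes, 9.64% as higher and 9.46% as lower. Among surface receptors 1 of 4 was called higher and none lower, and among endosomal receptors 4 of the 5 tested were called lower and none higher. The median log2 fold change was -0.84 for the surface genes, -1.75 for the 5 endosomal genes tested and -0.11 for all tested genes. The counts of the groups did not overlap for 5 of the 9 members, after scaling, against 37.9% of all tested genes. Leaving out WT replicate 3 or IRF8KO replicate 2, the libraries that stand apart below, gave 7 calls among 10 tested members (2 higher, 5 lower) and 6 among 9 (1 higher, 5 lower), where 33.5% and 17.6% of all tested genes were called. Leaving out WT replicate 2 or IRF8KO replicate 3 gave 3 calls each, those of Tlr2, Tlr3 and Tlr12, where 10.4% and 7.95% of all tested genes were called. In bulk samples, fewer cells of a type and less RNA per cell cannot be told apart.

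**Figure D1:**
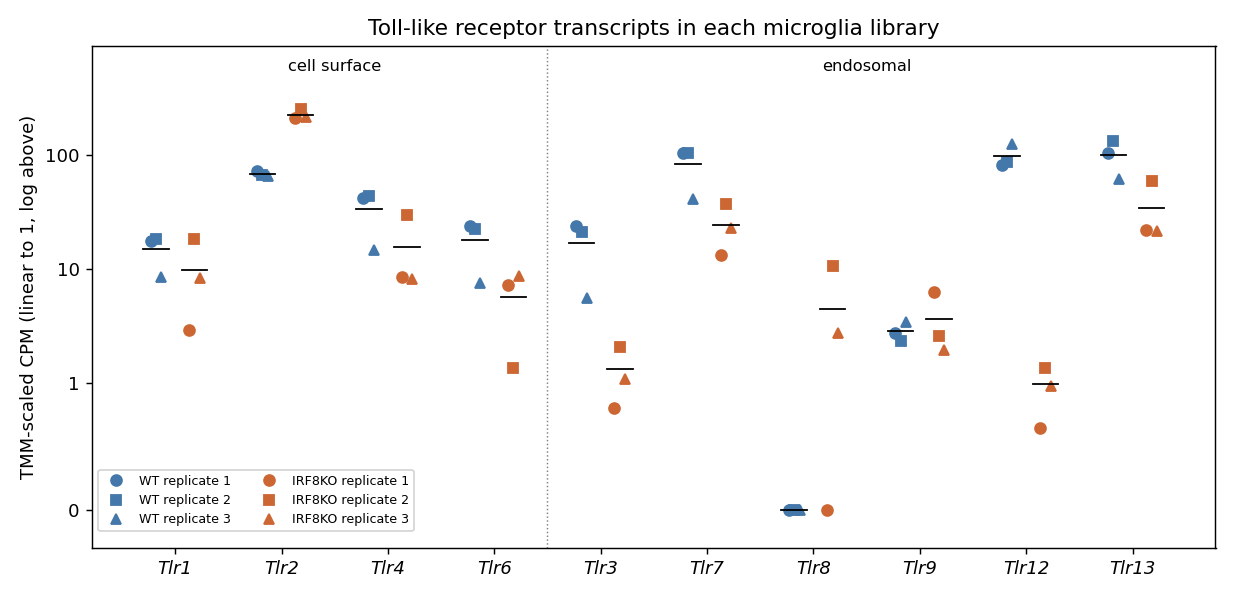
Counts scaled to library size (CPM, linear up to 1 and logarithmic above) of the 10 receptor genes in each library; symbols are libraries (circle, square and triangle for replicates 1, 2 and 3), colours are genotypes and short black lines are group means. Tlr2 lies at 65.5 to 72.6 in WT and at 209 to 251 in IRF8KO, while Tlr12 lies at 82.1 to 124 in WT and near 1 in IRF8KO.

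The promoter sequences of 3 members are shown: Tlr2 as the member called higher, Tlr12 as the one with the largest fall, and Tlr8 for its lack of counts in WT. That of Tlr3, the second largest fall, is not shown because its window runs into annotated exons. RefSeq windows on build GRCm38.p6 were matched for 8 of the 10 members, all but Tlr4 and Tlr7, giving 10 windows. The 4 motifs below were searched on both strands of each window of 300 bases: a GAAA-type pair of IRF sites (GAAANNGAA), a GGAA-type ETS-IRF pair (GGAANNGAA), a PU.1 core (GAGGAAGT) and the NF-kB consensus. Matches to different motifs may overlap, though none of those given here did. The bases shown are those before the start site, 5′ to 3′ on the gene's strand, and capitals mark a motif match. For Tlr2 (chr3:83841768-83841858, minus strand) they stop where the first annotated exon begins, for Tlr8 they cover chrX:167264330-167264579 (minus strand) and for Tlr12 chr4:128618620-128618869 (minus strand).
Tlr2: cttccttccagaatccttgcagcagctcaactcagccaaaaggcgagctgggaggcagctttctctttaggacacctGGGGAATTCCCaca
Tlr8: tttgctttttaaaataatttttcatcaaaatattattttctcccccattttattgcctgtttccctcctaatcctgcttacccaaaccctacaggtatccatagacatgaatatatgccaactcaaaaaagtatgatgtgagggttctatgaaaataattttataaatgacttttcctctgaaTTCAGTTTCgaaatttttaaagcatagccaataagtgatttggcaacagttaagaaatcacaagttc
Tlr12: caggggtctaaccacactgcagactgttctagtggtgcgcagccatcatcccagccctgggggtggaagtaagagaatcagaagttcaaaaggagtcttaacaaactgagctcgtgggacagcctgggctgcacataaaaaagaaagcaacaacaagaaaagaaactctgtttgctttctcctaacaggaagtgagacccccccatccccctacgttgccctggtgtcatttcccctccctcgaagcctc

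The capitals in Tlr2 are a pair of overlapping NF-kB consensus matches that begin at -173 and -172, counted in bases from the start site, and a further match begins at -8. Tlr3, which fell where Tlr2 rose, also held an NF-kB consensus match, at -211. The capitals in Tlr8 are a GAAA-type pair on the opposite strand, at -67. Tlr6 held a pair of GAAA-type matches at -115 and -109 from 1 of its start sites. A PU.1 core lay at -23 from a start site of Tlr1 and 10 bases after that of Tlr9. No match to these letters lay in the windows of Tlr12 and Tlr13. In all, 6 of the 10 windows held a match, against 25.8% of 32851 RefSeq windows of the same length; by motif the background was 8.56% for the GAAA-type pair, 8.24% for the GGAA-type pair, 3.20% for the PU.1 core and 8.46% for the NF-kB consensus. A match describes letters and is no measured site.

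The series as a whole sets some limits on these values. Gene counts per library ranged from 3658917 to 11098363. Counts of Irf8 itself were 4084, 12022 and 10179 in WT and 4628, 7243 and 7834 in IRF8KO, replicates 1 to 3 in order. Its log2 fold change was -0.44 (SE 0.33) with an adjusted p of 0.37 by edgeR's quasi-likelihood test, and it was called lower in 3 of 18 alternatives, with library size alone (-0.90, adjusted p 0.0076), the GC offset (-0.65, 0.025) and the GC offset with the replicate block (-0.63, 0.036). The transcript count thus did not check the labels; which exons the knockout removes is not given in the sources used here. On principal components of log2 CPM, the first (61.9% of the variance) separated the genotypes, and on the second (20.2%) WT replicate 3 lay apart at -89.3 while the other 5 lay between -17.1 and 43.0. Summed microglia markers were at 41989 to 69136 CPM in WT and 32732 to 46039 CPM in IRF8KO (10 of 10 and 9 of 10 genes detected, with Sall1 at 0 in every IRF8KO library). Csf1r and Tmem119, which lead that sum, were not called, but 4 of the 10 markers were called lower (Cx3cr1, P2ry12, Gpr34 and Sall1) and 1, Fcrls, higher. The log2 fold changes of Cx3cr1 and P2ry12 were -2.16 and -4.12. Markers of border-associated macrophages summed to 612 to 835 CPM in WT and 3819 to 5036 CPM in IRF8KO, led by Pf4 and Stab1. All 8 of its 12 genes tested were called higher, while Lyve1 and Cd209f had no counts in any library. Neutrophil markers summed to 286 CPM in IRF8KO replicate 2 (9 of 10 genes detected, led by S100a8 and Camp, with Mmp8 at 0), to 2.73 and 2.06 CPM in IRF8KO replicates 1 and 3, and to at most 0.195 CPM in WT. Cxcr2, the neutrophil marker that was tested, was called higher, with 0 counts in WT and 10, 46 and 16 in IRF8KO (adjusted p 0.0071 by edgeR). Monocyte markers summed to 6.62 to 27.1 CPM in WT and to 30.3, 52.0 and 9.33 CPM in IRF8KO replicates 1, 2 and 3, led by Nr4a1 and Chil3, the latter detected in IRF8KO replicate 2 alone at 34.6 CPM. B cell markers, led by Ighm and Cd79b, summed to 528 to 867 CPM in WT and 29.3 to 40.9 CPM in IRF8KO, with Ms4a1 and Pax5 at 0 throughout. Sums of T and NK cell markers (0 to 0.142 CPM in WT, 4.17 to 5.65 in IRF8KO), neuronal markers (0.354 to 8.68 and 20.6 to 27.5) and endothelial and pericyte markers (18.6 to 32.1 and 10.7 to 12.4) did not overlap between genotypes. They were led by Cd4 and Klrb1c, by Rbfox3 and Syt1, and by Pecam1 and Kdr. Cd4 made up most of the T and NK cell sum, at 4.17, 3.32 and 4.45 CPM in IRF8KO replicates 1 to 3. Cd3e, Cd8a and Ncr1 of that list had no counts in any library. In the endothelial and pericyte list Flt1, not tested, lay the other way, with 0 counts in WT and 5, 88 and 59 in IRF8KO, while Pecam1 was called lower. Pdgfrb, not called, had 6 counts in WT and 63 in IRF8KO. The sums of conventional dendritic cell markers (led by Zbtb46 and Batf3), plasmacytoid dendritic cell markers (Siglech and Bst2), astrocyte markers (Slc1a3 and Aldoc) and oligodendrocyte markers (Mbp and Cnp) did overlap. Their members differed in direction: Slc1a3 was called lower and 4 of the other tested astrocyte markers (Gfap, Aldh1l1, Slc1a2 and S100b) higher, Cnp lower and Cspg4 higher, and Batf3 lower and Zbtb46 higher, whereas Bst2 and Cox6a2, the called plasmacytoid dendritic cell markers, were both higher. Mbp, not called, was at 44.0 to 274 CPM in WT and 365 to 545 CPM in IRF8KO. The part of such cells in the results below was not tested.

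Ordered by level per length, the receptors made up a different repertoire in each genotype. Levels between genes are given as scaled CPM per kilobase of exon. In WT, the leading 4 were Tlr12 at 30.7 ± 7.33, Tlr13 at 23.0 ± 8.41, Tlr2 at 22.6 ± 1.29 and Tlr7 at 20.3 ± 8.92 (mean ± SD, n = 3), and the ranges of neighbours among them overlapped. Tlr4 at 6.01 ± 2.91 lay below Tlr7 in all 3 libraries without overlap, and it was followed by Tlr6 at 4.77 ± 2.38, Tlr1 at 4.43 ± 1.66 and Tlr3 at 3.22 ± 1.88, whose neighbours overlapped in range. Tlr9 at 0.815 ± 0.162 lay below Tlr3 in each library, and Tlr8 had no counts.

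In IRF8KO, Tlr2 at 74.8 ± 7.54 led in all 3 libraries and did not overlap with any other receptor. Tlr13 at 7.95 ± 5.07 and Tlr7 at 5.98 ± 2.93 came next, then Tlr1 at 2.92 ± 2.32, Tlr4 at 2.78 ± 2.22, Tlr6 at 1.53 ± 1.03, Tlr8 at 1.24 ± 1.53 and Tlr9 at 1.04 ± 0.668, each overlapping in range with its neighbour (n = 3). Tlr12 at 0.311 ± 0.111 and Tlr3 at 0.253 ± 0.127 were the lowest and overlapped in range, below Tlr9 in every library. Tlr12 thus stood at the top of the WT order and at position 9 of 10 in IRF8KO.

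The endosomal share of all receptor transcripts per length was 65.1%, 68.1% and 69.3% in the WT libraries, but 12.5%, 22.5% and 13.7% in the IRF8KO libraries (replicates 1, 2 and 3 in order). The group means were 67.5% ± 2.14 and 16.2% ± 5.45 (SD, n = 3), a difference of -51.3 percentage points, and every WT library lay above every IRF8KO library. The sum over the family was 116 ± 18.9 in WT and 98.8 ± 20.3 in IRF8KO (scaled CPM per kilobase, n = 3), and these ranges overlapped. The surface sum was 37.8 ± 7.75 in WT and 82.0 ± 11.04 in IRF8KO, while the endosomal sum was 78.0 ± 11.6 and 16.8 ± 9.26. Tlr2 alone made up 19.8% ± 3.04 of the WT family sum and 76.7% ± 7.37 of the IRF8KO sum. Without Tlr2, the endosomal share was 84.3% ± 5.02 in WT and 69.5% ± 2.51 in IRF8KO. These shares are descriptions, with no test.

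**Figure D2:**
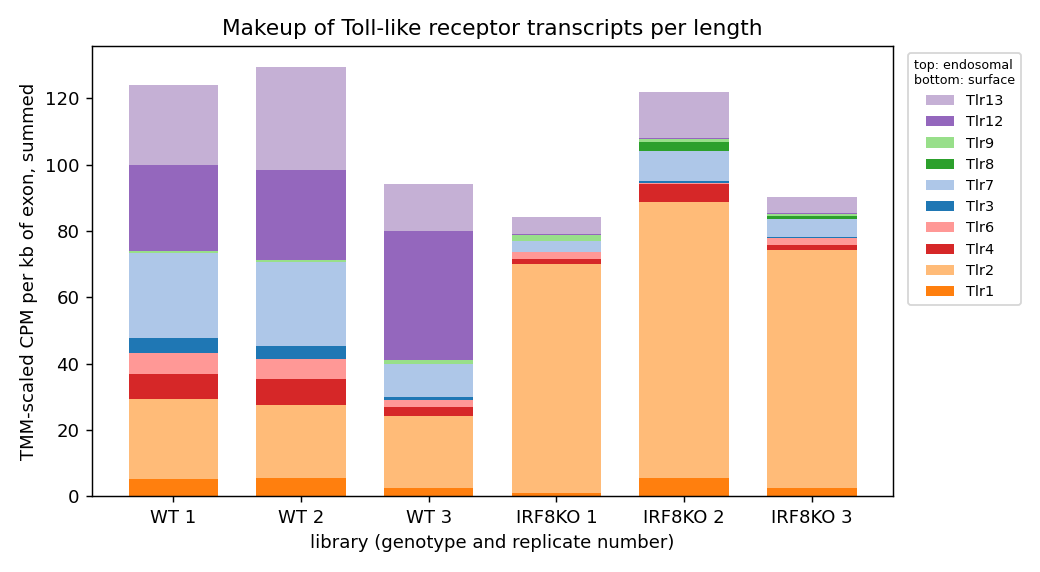
Summed level per length of the 10 receptor genes in each library (scaled CPM per kilobase of exon, stacked by gene with surface receptors at the bottom). Totals run from 84.1 to 129 across the 6 libraries, and the endosomal part is 65.1% to 69.3% of the total in WT and 12.5% to 22.5% in IRF8KO.

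Among the surface receptors, Tlr2, the shared partner of the lipopeptide-binding heterodimers, was the single member called, and it was higher. Tlr2 (ENSMUSG00000027995, chr3:83836272-83841767 on GRCm38, minus strand) had 72.6, 66.3 and 65.5 CPM in WT replicates 1 to 3 and 209, 251 and 216 CPM in IRF8KO replicates 1 to 3. All IRF8KO libraries were above all WT libraries, and the WT libraries lay close to each other. The group means were 68.1 ± 3.88 and 225 ± 22.7 CPM (SD, n = 3). This difference was 1.73 on the log2 scale (SE 0.26) and was called at an adjusted p of 9.4e-04 by edgeR's quasi-likelihood test. The markers of border-associated macrophages were also higher in all 3 IRF8KO libraries (3819 to 5036 against 612 to 835 CPM summed), and their part in the Tlr2 difference was not tested. Without IRF8KO replicate 2, the library with neutrophil markers, the Tlr2 log2 fold change was 1.65.

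The partners of TLR2 did not rise with it. Tlr1 (ENSMUSG00000044827, chr5:64924679-64933563, minus strand) had 17.7, 18.3 and 8.41 CPM in WT and 2.89, 18.2 and 8.24 CPM in IRF8KO. These ranges overlapped widely, with IRF8KO replicate 2 at the WT level. The fitted log2 difference was -0.59 (SE 0.59, 95% interval -1.87 to 0.70), with an adjusted p of 0.52 by edgeR's quasi-likelihood test. Without IRF8KO replicate 2 it was -1.38 (0.14). Tlr6 (ENSMUSG00000051498, chr5:64952031-64960097, minus strand), which lies 18467 bases from Tlr1, had 23.5, 22.2 and 7.58 CPM in WT and 7.22, 1.35 and 8.57 CPM in IRF8KO. Here IRF8KO replicate 2 was the lowest of the 6 libraries, and WT replicate 3 lay among the IRF8KO values. On the log2 scale it differed by -1.65 (SE 0.65, 95% interval -3.06 to -0.23) and missed the threshold at an adjusted p of 0.097 by edgeR's quasi-likelihood test, but passed it in 4 of 18 alternatives: without WT replicate 3 (0.027), in DESeq2 (0.048), without the expression filter (0.011) and with the second strand column (0.034). With the first strand column the adjusted p was 0.17. Tlr1 and Tlr6 share sequence: 15.4% of the 50-base words of Tlr1 transcripts and 12.3% of those of Tlr6 occur in another gene, 454 of them in both, so counts in those stretches are uncertain.

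The ratio of Tlr2 to each partner, per length, was higher in every IRF8KO library. Tlr2 exceeded Tlr1 by 4.55, 4.01 and 8.64 times in WT replicates 1 to 3 and by 80.2, 15.3 and 29.1 times in IRF8KO replicates 1 to 3. It exceeded Tlr6 by 3.81, 3.69 and 10.7 times in WT and by 35.7, 231 and 31.2 times in IRF8KO. The ratios of the 2 groups did not overlap for either partner. The highest ratio to Tlr6 came from IRF8KO replicate 2, where Tlr6 had 15 counts.

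Tlr4, the lipopolysaccharide receptor (ENSMUSG00000039005, chr4:66827584-66930284, plus strand), had 41.8, 43.6 and 14.8 CPM in WT and 8.51, 29.7 and 8.13 CPM in IRF8KO. WT replicate 3 and IRF8KO replicate 2 lay on the other genotype's side, so the groups overlapped. Its log2 fold change was -1.10 (SE 0.55, 95% interval -2.29 to 0.09) with an adjusted p of 0.18 by edgeR's quasi-likelihood test. Without IRF8KO replicate 2, the library with 286 CPM of neutrophil markers, it was -1.99 and passed at an adjusted p of 0.023. The ratio of Tlr2 to Tlr4 per length was 3.20, 2.80 and 8.18 in WT and 45.2, 15.6 and 48.96 in IRF8KO.

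Among the endosomal receptors, Tlr12 was near absence in the libraries labelled IRF8KO, at 1.10% of its WT level, and Tlr3 was at 8.22%. Tlr12 (ENSMUSG00000062545, chr4:128615443-128618619, minus strand), which encodes a receptor for parasite profilin, had 82.1, 85.9 and 124 CPM in WT and 0.642, 1.35 and 0.976 CPM in IRF8KO. These values rest on 422, 1213 and 901 counts in WT and on 4, 15 and 9 counts in IRF8KO, and every WT library was far above every IRF8KO library. Tlr12 fell by 6.55 on the log2 scale (SE 0.40), with an adjusted p of 1.9e-06 by edgeR's quasi-likelihood test. Tlr12 had the highest mean WT level per length, but Tlr13 lay above it in WT replicate 2 (30.9 against 27.0 scaled CPM per kilobase). The Tlr12 window shown above held none of the motifs searched.

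Tlr3, the receptor for RNA duplexes (ENSMUSG00000031639, chromosome 8, 45395665 to 45411080, minus strand), had 23.5, 21.2 and 5.51 CPM in WT and 0.803, 2.06 and 1.08 CPM in IRF8KO. The counts were 121, 300 and 40 in WT and 5, 23 and 10 in IRF8KO. WT replicate 3 was the lowest WT library but still lay above all IRF8KO libraries. For Tlr3 the log2 fold change was -3.62 (SE 0.66), with an adjusted p of 0.0029 by edgeR's quasi-likelihood test. An antisense gene, Gm45542, overlaps 7.32% of the Tlr3 exons and had 0 counts in all 6 libraries; reads in the overlap cannot be assigned to a strand in these libraries.

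Tlr7 and Tlr13 were lower by about the same fold as each other, and by less than Tlr12 and Tlr3. Tlr7, a receptor for unpaired RNA (ENSMUSG00000044583, chrX:167304929-167330558, minus strand), had 104, 103 and 40.7 CPM in WT and 13.3, 37.1 and 22.9 CPM in IRF8KO. The lowest WT library lay just above the highest IRF8KO library. Tlr7 fell by 1.75 on the log2 scale (SE 0.44), with an adjusted p of 0.016 by edgeR's quasi-likelihood test. Tlr13, the receptor for bacterial ribosomal RNA (ENSMUSG00000033777, chrX:106143204-106160493, plus strand), had 103, 133 and 61.1 CPM in WT and 21.8, 59.4 and 21.4 CPM in IRF8KO. As with Tlr7, WT replicate 3 and IRF8KO replicate 2 nearly met. Tlr13 fell by 1.53 (SE 0.43), with an adjusted p of 0.029 by edgeR's quasi-likelihood test.

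The ratio of Tlr13 to Tlr7 per length stayed within 0.885 to 1.55 over all 6 libraries (1.20 ± 0.243 in WT, 1.32 ± 0.377 in IRF8KO, n = 3). Both calls depended on single libraries. The Tlr7 adjusted p was 0.052 without WT replicate 2, 0.081 without IRF8KO replicate 1 and 0.101 without IRF8KO replicate 3, and that of Tlr13 was 0.053, 0.104, 0.138 and 0.161 without WT replicates 1 and 2 and IRF8KO replicates 1 and 3. Without IRF8KO replicate 2, both were further from WT, with log2 fold changes of -2.174 for Tlr7 (adjusted p 0.012) and -2.19 for Tlr13 (adjusted p 0.0052).

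Tlr9, the CpG DNA receptor (ENSMUSG00000045322, chr9:106222598-106226883, plus strand), had 2.72, 2.34 and 3.45 CPM in WT and 6.26, 2.60 and 1.95 CPM in IRF8KO, from 14 to 39 counts per library. The groups overlapped, and IRF8KO replicate 1 was the highest. The log2 fold change of 0.33 (SE 0.67, 95% interval -1.13 to 1.80) had an adjusted p of 0.77 by edgeR's quasi-likelihood test, and its sign changed with library-size scaling (-0.21). Relative to the median of all tested genes, Tlr9 was at 0.40 under that scaling, against 0.44 with the scaling used elsewhere. A fall as large as the Tlr7 estimate (-1.75) lies outside the Tlr9 interval, but the Tlr7 interval (-2.71 to -0.80) overlaps it. The 2 genes were not compared by a test.

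Tlr8, a neighbour of Tlr7 on the X chromosome with a gap of 40599 bases (ENSMUSG00000040522, chrX:167242696-167264329, minus strand), was counted in 2 IRF8KO libraries and in no WT library. It had 0, 118 and 25 counts in IRF8KO replicates 1, 2 and 3, or 0, 10.6 and 2.71 CPM, and 0 counts in all 3 WT libraries. A count of 0 allows up to 3 counts, or 0.584, 0.212 and 0.414 CPM in WT replicates 1, 2 and 3 and 0.482 CPM in IRF8KO replicate 1. Against a floor of 3 counts over the WT group, the IRF8KO group was at least 47.5-fold higher, but IRF8KO replicate 1 lay with WT. The bound was 14.3-fold without IRF8KO replicate 2 and 22.2-fold without WT replicate 2. Tlr8 did not pass the expression filter, so it has no adjusted p in the fit used for the other members. Without the filter it was called at an adjusted p of 6.0e-07 by edgeR's quasi-likelihood test, whereas DESeq2 gave 0.16. It also passed the filter when certain libraries were left out, with adjusted p-values by edgeR of 0.035, 0.055 and 0.033 on leaving out WT replicate 1, 2 or 3, and 0.0074 on leaving out IRF8KO replicate 1. IRF8KO replicate 2, which held 118 of the 143 counts, is also the library with 286 CPM of neutrophil markers and Chil3 at 34.6 CPM; without it 25 counts in IRF8KO replicate 3 remain, a library with 2.06 CPM of neutrophil markers.

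**Figure D3:**
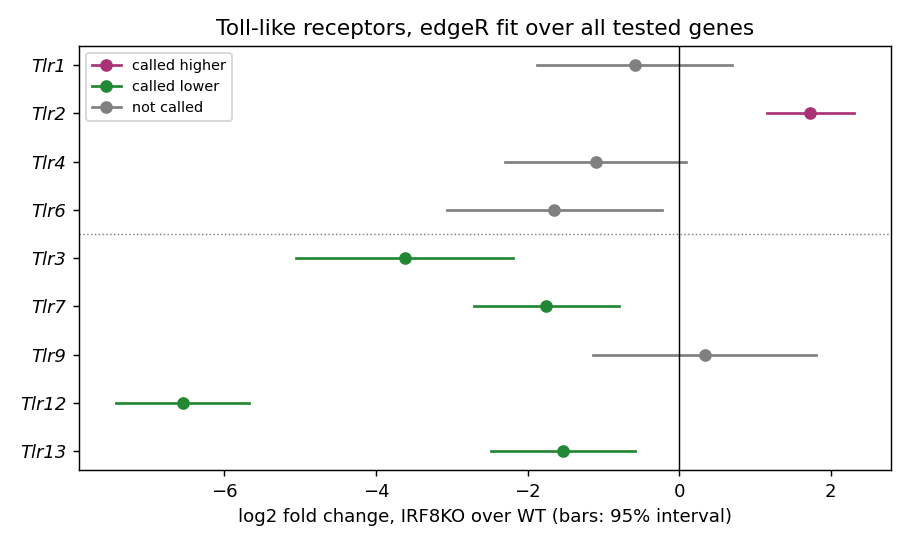
Log2 fold changes (IRF8KO over WT) of the 9 tested receptor genes from the edgeR fit, with bars for the 95% interval and colours for the call; surface receptors are above the dotted line. Tlr2 is at 1.73, Tlr12 at -6.55 and Tlr3 at -3.62, and the intervals of Tlr1, Tlr4 and Tlr9 include 0.

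Within WT, the tested receptor genes with low GC content differed between libraries in the same direction, and within IRF8KO all of them but Tlr6 did. In WT replicate 3, Tlr1, Tlr3, Tlr4, Tlr6, Tlr7 and Tlr13, whose longest transcripts have 39.4% to 45.6% GC, were lower than in WT replicates 1 and 2 by log2 differences of -0.94 to -1.98. Tlr2 at 49.3% GC differed by -0.08, while Tlr12 and Tlr9, both near 56% GC, differed by 0.56 and 0.42. All tested genes below 46% GC had a median difference of -1.06 in that library (3149 genes), and those at or above 49% GC a median of 0.44 (6162 genes). In IRF8KO replicate 2, 5 of these 6 tested receptors were above the mean of the other IRF8KO libraries, by 0.98 for Tlr3, 1.08 for Tlr7, 1.45 for Tlr13, 1.81 for Tlr4 and 1.84 for Tlr1, and Tlr6 went the other way by -2.36. Tlr8, untested and with 40.1% GC, was also highest in IRF8KO replicate 2 and had no counts in WT. The median of all tested genes below 46% GC was 0.56 there, and that at or above 49% GC was -0.27. Tlr2, Tlr12 and Tlr9 differed by 0.24, 0.62 and -0.41 in that library, so Tlr12 lay on the other side of 0 from the high-GC median. With an offset for GC content, Tlr7 and Tlr13 kept their calls at log2 fold changes of -1.16 and -1.15, Tlr3 was at -2.94, Tlr2 at 1.62 and Tlr12 at -6.79, and Tlr4 was at -0.53 without a call.

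**Figure D4:**
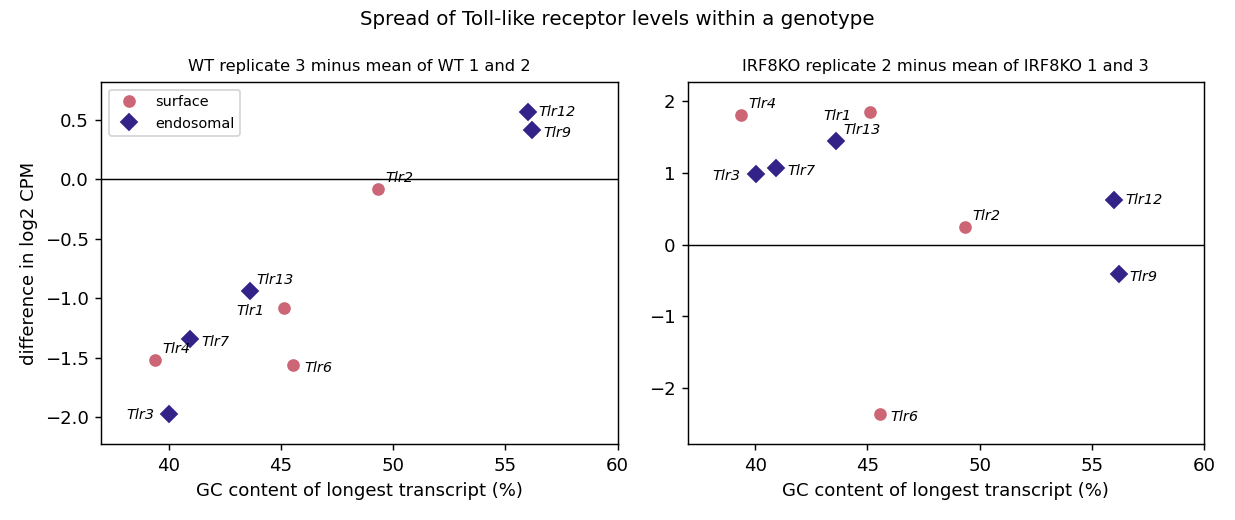
Difference in log2 CPM of each tested receptor gene within a genotype against the GC content of its longest transcript (percent): WT replicate 3 minus the mean of the other WT libraries (left) and IRF8KO replicate 2 minus the mean of the other IRF8KO libraries (right). On the left the 6 tested genes below 46% GC lie at -0.94 to -1.98 and Tlr12 and Tlr9 above 0; on the right Tlr6 lies at -2.36 and Tlr1 and Tlr4 near 1.8.

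The genes whose profile over the 6 libraries was closest to that of a called member were found by the root mean square difference of centred log2 CPM among 6054 tested genes with at least 10 CPM on average. Arhgef7, Asf1b and U2af2 were closest to Tlr2, with differences of 0.114, 0.118 and 0.175. Haao, Mrgpre and Tnfsf13b were closest to Tlr12 (0.351, 0.455 and 0.559), and the first 2 had 0 CPM in each IRF8KO library. Il1a, Cep152 and Col27a1 were closest to Tlr3 (0.244, 0.275 and 0.298). Il1a, the gene of the cytokine interleukin 1 alpha, had 33.5, 49.6 and 8.68 CPM in WT and 1.44, 4.49 and 2.169 CPM in IRF8KO, so WT replicate 3 was low for it as for Tlr3.

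The remaining mouse Toll-like receptors, Tlr5 for flagellin and Tlr11 for profilin, were held beside the members. Tlr5 had 10.7, 16.6 and 5.79 CPM in WT and 6.90, 5.29 and 4.34 CPM in IRF8KO, and was not called (log2 difference -1.01, adjusted p 0.19 by edgeR's quasi-likelihood test), except without WT replicate 3 (-1.29, 0.041). Tlr11, whose product pairs with that of Tlr12, had 6, 24 and 9 counts in WT and 0 in every IRF8KO library. Against a floor of 3 counts over the group it was at least 13.04-fold lower, with an adjusted p of 0.014 by edgeR's quasi-likelihood test, and the call was lost in 3 of the 14 alternatives that tested it: 0.067 and 0.074 without WT replicate 2 and IRF8KO replicate 3, and 0.054 with the GC offset and replicate block. Both profilin receptors, Tlr11 and Tlr12, were thus lower in IRF8KO.

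Of 99 genes listed around the receptors, with Tlr5 and Tlr11 among them, 98 were matched and 84 tested. Of these 84, 7 were called higher and 17 lower, against 9.64% and 9.46% of all tested genes. Without WT replicate 3 these counts were 15 and 29 of 86 tested, against 18.1% and 15.4% of all tested genes. Without IRF8KO replicate 3 they were 6 and 3 of 85, against 4.58% and 3.37%. Among accessory molecules and co-receptors, a list that also holds Tlr5 and Tlr11, 3 of 7 tested genes were lower (Cd180, Ly86 and Tlr11) and none higher. Cd14, the co-receptor that passes lipopolysaccharide to TLR4 and lipopeptides to TLR2, had 810, 758 and 1175 CPM in WT and 1308, 775 and 1175 CPM in IRF8KO, an overlap with a log2 fold change of 0.25 (95% interval -0.47 to 0.97). Ly96, which encodes MD-2, had 13.8, 19.1 and 12.7 CPM in WT and 28.1, 13.9 and 18.7 CPM in IRF8KO, and its interval was -0.44 to 1.24. In contrast to these TLR4 partners, Ly86, which encodes MD-1, the partner of the TLR4 relative RP105, had 314, 391 and 181 CPM in WT and 1.93, 1.97 and 3.90 CPM in IRF8KO. Its log2 fold change was -6.81 (SE 0.47) with an adjusted p of 3.4e-06 by edgeR's quasi-likelihood test. Cd180, which encodes RP105 itself, had 13.8, 15.6 and 7.03 CPM in WT and 3.21, 4.94 and 3.69 CPM in IRF8KO, and was called at an adjusted p of 0.040 that was lost in 9 of 18 alternatives.

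Among genes for folding, trafficking and endolysosomal processing, 3 of 17 tested were lower and none higher, against 9.46% and 9.64% of all tested genes. Unc93b1, the chaperone of the endosomal receptors, had 3601, 4503 and 8388 CPM in WT and 2258, 1410 and 1446 CPM in IRF8KO. The groups did not overlap, and WT replicate 3 was the highest. The log2 fold change was -1.69 (SE 0.41) with an adjusted p of 0.015 by edgeR's quasi-likelihood test; the call was lost without IRF8KO replicate 2 (0.063) and without IRF8KO replicate 3 (0.12). Hsp90b1, which encodes the receptor-folding chaperone gp96, had 126, 110 and 35.7 CPM in WT and 13.5, 27.0 and 12.1 CPM in IRF8KO, with a call lost without IRF8KO replicate 3 (0.054), and 15.7% of its exons overlap another gene. Slc15a4, a lysosomal transporter needed for TLR7 and TLR9 signalling, had 271, 268 and 375 CPM in WT and 179, 119 and 92.2 CPM in IRF8KO, and lost its call without the same libraries as Unc93b1 (0.067 and 0.14). The 14 genes without a call included the proteases Ctsb, Ctsl, Ctss and Lgmn, the nucleases Pld3 and Pld4 and the chaperone Cnpy3.

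Of 21 tested adaptors and kinases, 1 was called, as lower, where 19.1% of all tested genes were called in either direction. It was Ticam2, the adaptor that links TLR4 to TRIF, at 13.8, 17.7 and 4.55 CPM in WT and 2.89, 3.77 and 2.28 CPM in IRF8KO. Its log2 fold change was -2.01 (SE 0.58) with an adjusted p of 0.031 by edgeR's quasi-likelihood test. That call was lost in 5 of 18 alternatives: in limma-voom (0.057) and without WT replicate 1 or 2 (0.095 and 0.16) or IRF8KO replicate 1 or 3 (0.099 and 0.14). Myd88 had 108, 138 and 174 CPM in WT and 168, 126 and 167 CPM in IRF8KO, an overlap with a 95% interval of -0.49 to 0.76 on the log2 scale. Ticam1, the gene of TRIF, had 24.3, 24.7 and 32.5 CPM in WT and 19.3, 11.9 and 26.7 CPM in IRF8KO, with an interval of -1.29 to 0.29. Neither of these adaptors was called.

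Of 17 tested genes listed here as negative regulators, whatever their role in microglia, 2 were called higher and 1 lower. Of all tested genes, 9.64% and 9.46% were. Tnip1, which restrains NF-kB signalling, had 18.9, 18.7 and 22.6 CPM in WT and 48.3, 54.6 and 45.0 CPM in IRF8KO, a log2 fold change of 1.30. Cd300a, an inhibitory receptor, was higher by 0.94 and Peli1, a ubiquitin ligase of these pathways, was lower by a log2 fold change of -2.76. The call of Cd300a was lost in 9 of 18 alternatives, that of Peli1 without IRF8KO replicate 1 (0.057; the log2 fold change was -3.77 without IRF8KO replicate 2) and that of Tnip1 with library size alone (0.076).

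Among 13 downstream transcription factors, 3 were higher (Irf7, Nfkb2, Relb) and 5 lower (Irf5, Nfkb1, Atf3, Jun, Fos), against 9.64% and 9.46% of all tested genes. Irf7, which drives interferon genes downstream of TLR7 and TLR9, had 17.1, 21.9 and 17.9 CPM in WT and 165, 163 and 134 CPM in IRF8KO. Its log2 fold change was 3.01 (SE 0.28) with an adjusted p of 3.6e-05 by edgeR's quasi-likelihood test. Irf5, which acts with MyD88 on cytokine genes, moved the other way, from 733, 890 and 1224 CPM in WT to 483, 317 and 350 CPM in IRF8KO (log2 fold change -1.31, SE 0.32), and its call was lost without IRF8KO replicate 2 (0.066) or 3 (0.12). Irf3, the factor reached from TLR3 and TLR4 through TRIF, had 55.6, 77.3 and 104 CPM in WT and 137, 92.5 and 136 CPM in IRF8KO and was not called, except as higher without WT replicate 3 (adjusted p 0.016 by edgeR). The non-canonical NF-kB members Nfkb2 and Relb were higher by log2 fold changes of 2.07 and 1.66. Fos and Jun, immediate early genes, had 0.138 and 49.8 CPM in WT replicate 3 against 643 to 880 and 736 to 1544 CPM in the other WT libraries, so their groups overlapped although they were called; the Fos call was lost in 7 of 17 alternatives and the Jun and Atf3 calls in 2 of 18 each. Without WT replicate 2 the log2 fold changes of Fos, Jun and Atf3 were -4.26, -3.16 and -1.46, against -4.92, -4.14 and -2.21 with every library. Over the 17 alternatives that tested Fos, its log2 fold change ran from -5.64 to -1.66.

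Of 18 induced cytokines and targets, 9 were tested, 2 were higher and 4 lower, against 9.64% and 9.46% of all tested genes. Il1b, the gene of the cytokine interleukin 1 beta, had 1.95, 3.68 and 1.10 CPM in WT and 44.8, 26.8 and 15.6 CPM in IRF8KO, and Ccl5, a chemokine, had 1.36, 1.35 and 3.86 CPM in WT and 24.2, 19.8 and 28.1 CPM in IRF8KO. Both groups of values were apart, at log2 fold changes of 3.63 (SE 0.56) and 3.46 (SE 0.52). Without WT replicate 2 Il1b was at 4.26, and without WT replicate 3 Ccl5 was at 4.17. Il1a was lower by a log2 fold change of -3.47, and the chemokines Ccl2, Ccl3 and Ccl4 were lower by -2.87, -3.23 and -2.48. For these 3 chemokines, WT replicate 3 lay among the IRF8KO libraries (Ccl3 at 134, 267 and 21.6 CPM in WT and 25.8, 7.45 and 12.4 CPM in IRF8KO). The Ccl2 call was lost in 7 of 18 alternatives, that of Ccl4 in 4 and that of Ccl3 in 1; without WT replicate 2 the log2 fold changes of Ccl2, Ccl3 and Ccl4 were -1.52, -2.37 and -1.54, with adjusted p-values of 0.20, 0.029 and 0.11 by edgeR, and without IRF8KO replicate 1 those of Ccl3 and Ccl4 were -3.82 and -3.32.

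**Figure D5:**
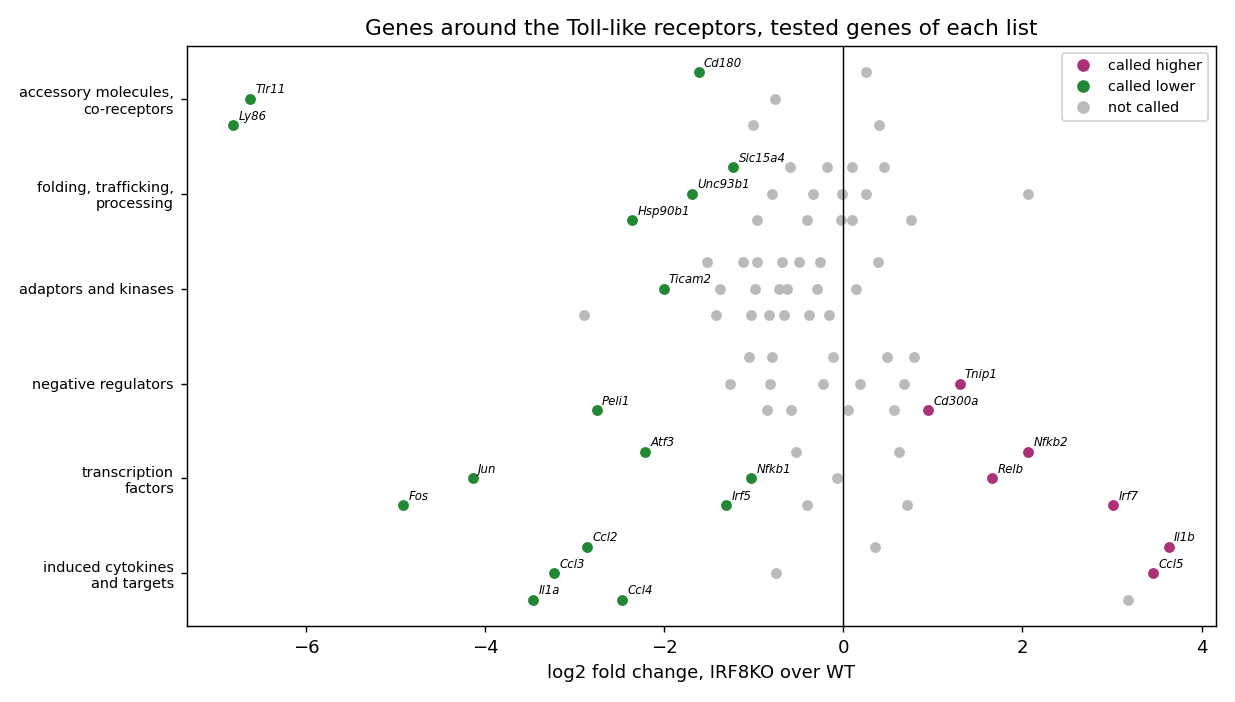
Log2 fold changes (IRF8KO over WT) of the 84 tested genes around the receptors, 1 point per gene, grouped by role and spread vertically for legibility; called genes are coloured and named. Ly86 and Tlr11 lie furthest to the left, the adaptors and kinases hold 1 called gene of 21, and the transcription factors and cytokines hold calls on both sides of 0. The position of Tlr11, with 0 counts in IRF8KO, depends on the prior count.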

How the data were processed

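Read counts per gene were deposited by the authors, 1 file per library, in the layout that STAR writes: 4 summary lines, kept out here, and a count without strand followed by 2 by strand. The submitters' processing notes name STAR 2.5.2b, Picard 2.17.11, bcl2fastq, Subread, featureCounts and build mm10; their roles, the annotation release and trimming are not given in the sources used here. Per the labels' protocols, libraries were made from sorted cells with SMART-Seq v4 (15 amplification cycles) and Nextera XT. Such libraries carry no strand and no molecular identifiers, so the floors given cover counting error only; the intervals come from the fit and include the spread between libraries.

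The counts without strand were used. Of 49585 genes, 49326 were matched by identifier to GENCODE M21 (GRCm38, the same assembly as mm10), which gave symbols, positions, exonic lengths and, from transcripts, GC content. edgeR 4.0.16 in R 4.3.3 was run on all genes: expression filter with a minimum count of 10, TMM scaling, quasi-likelihood F test, no covariate besides genotype, Benjamini-Hochberg adjustment over 11041 genes, called under 0.05. SE is the log2 fold change divided by the root of F, and intervals are at 95%. CPM are the deposited counts scaled to the TMM library size, and log2 CPM used a prior count of 2. A count of 0 was given a floor of 3 counts. The script was checked on simulated counts. DESeq2 1.42.0, limma 3.58.1 (voom), other scalings, filters, strand columns, a GC offset, a replicate block and leaving out each library were the 18 alternatives. No 2 libraries of a group agreed within sampling noise (chi-square per degree of freedom at least 8.57).

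The receptors and the lists of pathway genes and cell markers were chosen with earlier results of these data known. Named were all 10 receptors, Tlr5, Tlr11 and Irf8; of each pathway list up to 4 called genes with the smallest p per direction, with Unc93b1, Myd88, Ticam1, Cd14, Ly96, Irf3, Irf5 and Irf7 whatever their result; for the called members with the smallest p (at most 2 per direction) the 3 genes with the nearest profile; and the 2 most abundant genes of each marker list. Nfkb1, the genes listed as without a call and the marker genes Sall1, Cx3cr1, P2ry12, Gpr34, Fcrls, Lyve1, Cd209f, Mmp8, Ms4a1, Pax5, Gfap, Aldh1l1, Slc1a2, S100b, Flt1, Pdgfrb, Cxcr2, Cspg4, Cox6a2, Cd3e, Cd8a and Ncr1 fall outside that rule and were named after their values were seen. Nothing in the labels ties replicate numbers across genotypes, and p-values judge the genotype difference against the spread between these libraries as each fit estimates it.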

Additional observations from a re-analysis of the deposited data

How the results depend on the processing

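The 9 tested receptors (Tlr8, tested in 6 alternatives alone, is not among them) gave 160 comparisons with the 18 alternatives, of which 142 kept direction and side of the threshold, 7 lost a call, 6 gained one and 5 changed sign. Tlr2 stayed called in all 18 (log2 fold change 1.23 to 1.81), and Tlr12 (-7.10 to -6.03) and Tlr3 (-4.17 to -2.89) in the 17 that tested them; the cause of other changes was not tested. Tlr9 changed sign with library size alone (-0.21), the first strand column (-0.30), the GC offset (-0.017), the GC offset with the replicate block (-0.14) and without IRF8KO replicate 1 (leaving out 1 library gave -0.30 to 0.65). Of the genes around the receptors that were named by rule, Cd14 did so with library size alone (-0.26) and the GC offset with the block (-0.0081), and Ly96 with library size alone (-0.19). Myd88 did so with library size alone (-0.35), the first strand column (-0.0078), the GC offset (-0.13), the GC offset with the block (-0.12) and without WT replicate 1 (leaving out 1 library gave -0.031 to 0.35). With library size alone, the median of all tested genes was at -0.61, below the values of Tlr9, Cd14, Ly96 and Myd88.

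Leaving out 1 library gave 910 (without IRF8KO replicate 3) to 4003 (without WT replicate 3) called genes against 2109, 3 to 7 called receptors against 5, and 9 to 44 called pathway genes against 24. At least 10 counts in every library left 7 receptors tested and 3 called, where 1863 of 7873 tested genes were called. Where leaving out a library leaves a genotype with 2 libraries, the count of calls also reflects fewer samples. Library size alone moved the median of all genes by -0.50 and the split to 651 higher and 1908 lower from 1064 and 1045; relative to that median Tlr2 was at 1.84 in both and Tlr12 at -6.36 against -6.44. Pathway calls were then 5 higher and 25 lower against 7 and 17. The endosomal share differed by -48.98 points from raw counts against -51.3 per length.

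Correlations between same-numbered libraries, as deviations from the group mean, differed in sign (-0.26, 0.328 and 0.114). Deviations within a group of 3 constrain each other, so these values cannot decide whether replicate numbers pair the libraries. The replicate block gave 2353 called genes, 6 called receptors, Tlr4 being the addition (adjusted p 0.036 by edgeR), and 24 pathway genes. Depth limits Tlr9, Tlr8 and Tlr11, with at most 39, 118 and 24 counts in a library.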

Other observations

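Several target genes of these receptors were too low to be tested and are given as counts in WT replicates 1 to 3 and IRF8KO replicates 1 to 3; they were chosen after their values were seen. Il6, the gene of interleukin 6, had 7, 52 and 5 counts in WT and 0 in each IRF8KO library. Cxcl1, a neutrophil-attracting chemokine, went the other way with 0 in each WT library and 21, 9 and 17 in IRF8KO. Il12b had 0 counts throughout. Ifnb1, the interferon beta gene reached from TLR3 and TLR4, had 0 in WT and 0, 6 and 3 in IRF8KO. Lbp, which carries lipopolysaccharide to CD14, was counted in IRF8KO replicate 2 alone, at 29, the library that also held most Tlr8 counts and the neutrophil markers.

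Tnf, a classical target, had 10.1, 37.2 and 3.72 CPM in WT and 13.8, 11.1 and 5.75 CPM in IRF8KO and was not called (adjusted p 0.47 by edgeR's quasi-likelihood test). Nfkbia, the feedback inhibitor of NF-kB, had 134, 152 and 51.1 CPM in WT and 154, 181 and 248 CPM in IRF8KO, so the groups did not overlap, but it was not called either (0.17). Ctss, a protease that trims endosomal receptors, had 3793, 3999 and 2373 CPM in WT and 1543, 1670 and 2014 CPM in IRF8KO, apart in range and above the threshold at an adjusted p of 0.070.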
